A study of Mus musculus with 14 samples.

Results

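A set of 10 imprinted genes, H19, Igf2, Igf2r, Meg3, Dlk1, Peg3, Snrpn, Grb10, Kcnq1ot1, and Zrsr1, were followed through the H3K4me3 peak lists of LSK cells from obese and lean mice. They were chosen by name as well-known imprinted genes, not by any measured value, and are 10 of 45213 genes whose start could be placed on chromosomes 1 to 19, X, and Y. LSK cells (Lin-Sca1+cKit+) are the bone marrow fraction that holds the hematopoietic stem and progenitor cells. The cells came from male C57BL/6J mice that were fed from 3 to 4 weeks of age, for 16 to 20 weeks, with a high-fat diet (HFD, 60% of kcal from fat) or a low-fat diet (LFD, 10% of kcal from fat). H3K4me3, a histone mark of active and poised promoters, was mapped by CUT&Tag, in which an antibody guides a transposase to the mark, in 10000 sorted cells per library. There were 3 HFD-LSK and 4 LFD-LSK lists, each called on 1 library. The labels do not say that libraries came from separate mice, so the p-values measure the spread between libraries, which may be technical.

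Imprinted genes are expressed mainly from the maternal or mainly from the paternal chromosome. The choice is set by imprinting control regions, stretches of DNA that carry methylation on 1 parental copy only, and H3K4me3 is known to sit on the unmethylated copy. Many control regions that are methylated in the egg are themselves promoters, used by the paternal copy, among them those of Zrsr1, Kcnq1ot1, Airn, Snrpn, and Peg3. Control regions methylated in sperm, such as those upstream of H19 and between Dlk1 and Meg3, lie between genes. The lists do not tell the parental copies apart. A weaker mark in every cell and a mark in fewer cells cannot be told apart either.

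A start was counted as called in a list when a peak overlapped the 1 kb on either side of it. Each peak carries a fold enrichment, the ratio of its summit to the local background. As that ratio depends on the depth and background of its own library, peaks were ranked by fold within their list, with rank 1 the strongest. The lists held between 6921 peaks (LFD-LSK replicate 4) and 13094 peaks (HFD-LSK replicate 2), and their read depth is unknown. Of the gene starts called in all the other 6 lists, LFD-LSK replicate 4 called 74.1%, LFD-LSK replicate 1 called 88.0%, and the remaining 5 lists called 96.1% to 100%. Of the gene starts called in a single list, 56.5% were in HFD-LSK replicate 2 and 31.9% in HFD-LSK replicate 3. A missing call is therefore no measured absence of the mark. Kit, Cd34, Meis1, Gata2, and Tal1, genes of stem and progenitor cells, were called in 7 of 7 lists. Flt3 was called in 6, Runx1 in 5, and Ly6a, which encodes the Sca-1 used to sort the cells, in 0. Of 13 markers of mature blood, endothelial, and stromal cells, 11 were called in no list, and Cxcl12, a stromal chemokine, was called in 2.

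The sequences of 4 starts are shown for their unequal content of CpG, set beside the calls further on. Zrsr1, Kcnq1ot1, and Airn were called in at least 1 list and have 10, 9, and 3 CpG dinucleotides, the bases that DNA methylation acts on, whereas the start of Igf2r has 34 and was called in none. A second start of Commd1, the host gene of Zrsr1, has 17 and lay under most of the Zrsr1 peaks. The median over all promoters is 7. The summits of all peaks at Zrsr1, Kcnq1ot1, and Airn lay downstream of the bases shown. The CpG content of the DNA at the summits was not counted. Each sequence shown is the RefSeq promoter of GRCm38.p6, 250 bases before to 50 after the start, 5′ to 3′ on the gene's strand, with every CG in capitals. The positions are chr11:22971755-22972054 (Zrsr1, plus strand), chr7:143296498-143296797 (Kcnq1ot1, minus strand), chr17:12741061-12741360 (Airn, plus strand), and chr17:12769657-12769956 (Igf2r, minus strand).
Zrsr1: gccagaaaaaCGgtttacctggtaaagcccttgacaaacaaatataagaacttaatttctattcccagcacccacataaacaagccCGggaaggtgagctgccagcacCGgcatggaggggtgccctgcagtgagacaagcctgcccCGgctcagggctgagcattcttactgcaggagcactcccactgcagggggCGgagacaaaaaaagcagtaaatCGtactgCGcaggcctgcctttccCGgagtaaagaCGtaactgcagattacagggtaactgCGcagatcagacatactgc
Kcnq1ot1: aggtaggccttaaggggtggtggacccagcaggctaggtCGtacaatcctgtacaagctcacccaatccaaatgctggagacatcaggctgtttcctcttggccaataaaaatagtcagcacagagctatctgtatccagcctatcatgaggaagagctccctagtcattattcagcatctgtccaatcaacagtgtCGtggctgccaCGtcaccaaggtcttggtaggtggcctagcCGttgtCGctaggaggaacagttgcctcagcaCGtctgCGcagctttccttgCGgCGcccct
Airn: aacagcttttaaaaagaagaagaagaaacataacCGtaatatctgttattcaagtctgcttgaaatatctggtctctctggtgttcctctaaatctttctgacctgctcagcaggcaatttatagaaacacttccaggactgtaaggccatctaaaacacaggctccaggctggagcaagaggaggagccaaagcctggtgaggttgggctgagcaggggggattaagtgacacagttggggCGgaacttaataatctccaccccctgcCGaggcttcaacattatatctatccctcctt
Igf2r: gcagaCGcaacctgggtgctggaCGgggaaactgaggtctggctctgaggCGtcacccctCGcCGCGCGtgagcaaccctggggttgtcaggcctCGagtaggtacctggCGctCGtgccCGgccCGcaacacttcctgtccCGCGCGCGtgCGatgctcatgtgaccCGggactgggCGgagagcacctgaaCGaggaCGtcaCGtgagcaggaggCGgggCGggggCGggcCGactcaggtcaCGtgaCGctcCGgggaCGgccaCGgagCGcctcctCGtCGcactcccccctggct

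Of the 10 genes, 3 were called at their start in at least 1 list (Zrsr1, Kcnq1ot1, and Grb10), 7 in none, and 0 in all 7. Over all gene starts, 29.0% were called in at least 1 list and 11.1% in all 7, and over protein-coding ones 20.2% were called in all 7. Of the 7 members that encode proteins, 2 were called, against 51.3% of protein-coding starts. Of the 3 long noncoding RNAs, 1 was called, against 15.3% of such starts. Without LFD-LSK replicate 4, Zrsr1 was called in every list. The heat map of calls shows that the marked starts were few and that most of their peaks were in the lower part of their lists.

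**Figure D1:**
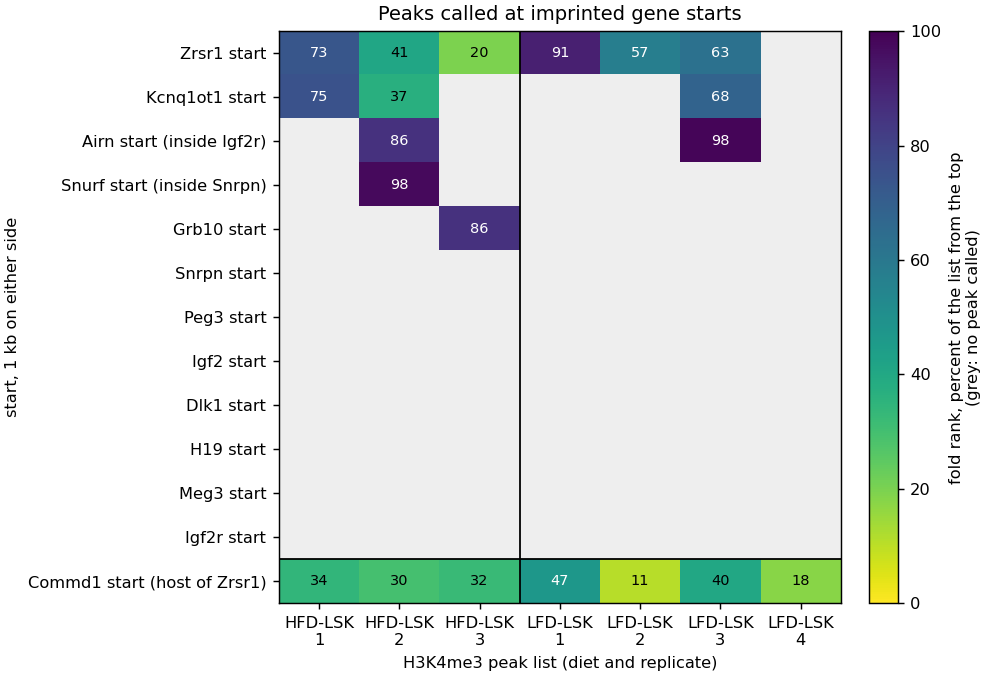
Heat map of peaks called within 1 kb of each start (rows) in the 7 H3K4me3 lists (columns, diet and replicate). Numbers and color give the peak's rank by fold as a percentage of the list counted from the top, and grey cells have no call. Zrsr1 was called in 6 lists and Kcnq1ot1 in 3, while Commd1, the host gene of Zrsr1, was called in all 7.

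Zrsr1 was the most widely marked of the 10. It is an intronless gene for a splicing factor of the U2af1 family that lies inside an intron of Commd1 and is expressed from the paternal copy (GRCm38 chr11:22972005-22976496, plus strand). Peaks at its start were in 3 of 3 lists from HFD-LSK and 3 of 4 from LFD-LSK. Its fold enrichment was 6.51, 16.03, and 10.8 in the HFD-LSK lists in replicate order. In LFD-LSK replicates 1, 2, and 3 it was 3.8, 8.19, and 6.65, and replicate 4 had no call. Within their lists these peaks ranged from the upper part (HFD-LSK replicate 3) to near the end (LFD-LSK replicate 1). The ranks were 6720.5, 5369.5, and 2339.5 in HFD-LSK, or 73.2%, 41.0%, and 19.5% of the way down the list. In LFD-LSK they were 6793, 6054, and 6509.5, or 91.2%, 57.3%, and 62.9% of the way down. HFD-LSK replicate 3 held the peak nearest the top, and the called ranks of the diets overlapped, HFD-LSK replicate 1 lying below 2 of the LFD-LSK lists.

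For the test, a list without a call was given the middle of the ranks between its last peak and the 14659 consensus peaks of all lists, which was 10790.5 in LFD-LSK replicate 4. The mean rank at Zrsr1 was then 4810 ± 2243 for HFD-LSK (SD, n = 3) and 7537 ± 2190 for LFD-LSK (SD, n = 4). The difference of -2727 ranks, nearer the top in HFD-LSK, did not exceed the spread among libraries (two-sided exact permutation over the 35 splits of 7 libraries into 3 and 4, p = 0.171, Benjamini-Hochberg adjusted p = 0.982 over all 13125 gene starts called in at least 1 list). The smallest p this design allows is 0.0286. Over all gene starts tested, 2.45% had a p below 0.05 in either direction and none passed the adjustment. Of the 3 members with a call, none had a p below 0.05.

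The Zrsr1 peaks began near the start and ran into the gene. Their widths were 993, 2617, and 1006 bp in HFD-LSK and 590, 970, and 963 bp in LFD-LSK. The broadest, in HFD-LSK replicate 2, covered chr11:22971651-22974267 and was in the list with the broadest peaks throughout, whose median width was 1198 bp against 525 to 961 bp in the others. The summits lay 119 to 860 bp downstream of the start. A second annotated start of Commd1, on the other strand, lies 861 bp downstream of the Zrsr1 start. It was under 5 of the 6 peaks, all but the one of LFD-LSK replicate 1, and in those 5 lists the mark cannot be given to either gene alone.

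The main start of Commd1, which encodes a regulator of copper handling and NF-κB, lies 10279 bp away and had a separate peak in 7 of 7 lists. Its ranks were 3142.5, 3872, and 3862.5 in HFD-LSK and 3519, 1144.5, 4157.5, and 1218 in LFD-LSK. The mean rank was 3626 ± 418.5 (SD, n = 3) in HFD-LSK and 2510 ± 1556 (SD, n = 4) in LFD-LSK, a difference within the spread (1116 ranks, exact permutation p = 0.343). In the 6 lists that called both starts, Commd1 was nearer the top in 5. The mean difference was 2348 ranks with an SD of 2220, and it did not pass an exact sign-flip test over these lists (two-sided p = 0.0938, smallest possible 0.0312).

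Kcnq1ot1 is the paternally expressed long noncoding RNA that runs antisense inside Kcnq1 and silences neighboring genes, and its start is the control region known as KvDMR1 (GRCm38 chr7:143213111-143296547, minus strand). It had a peak in 2 of 3 lists from HFD-LSK and 1 of 4 from LFD-LSK. The fold enrichment was 6.41 in HFD-LSK replicate 1, 17.2 in replicate 2 of that diet, and 6.29 in LFD-LSK replicate 3. The ranks were 6860, 4850.5, and 7064 in that order, or 74.7%, 37.0%, and 68.2% of the way down. HFD-LSK replicate 2 held the peak nearest the top and the widest, at 1488 bp against 633 bp in HFD-LSK replicate 1 and 470 bp in LFD-LSK replicate 3. In both HFD-LSK lists the peak covered the start itself, with the summit 61 and 219 bp downstream. The LFD-LSK peak, chr7:143295676-143296145, lay wholly inside the transcript, with its summit 693 bp downstream. With 4 of 7 ranks assigned for want of a call, the mean rank was 8343 ± 4425 (SD, n = 3) in HFD-LSK and 10380 ± 2354 (SD, n = 4) in LFD-LSK, a difference within the spread (-2038 ranks, exact permutation p = 0.457, adjusted p = 0.983). The start of Kcnq1, which encodes a potassium channel subunit and lies 189670 bp away, was called in 0 lists.

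**Figure D2:**
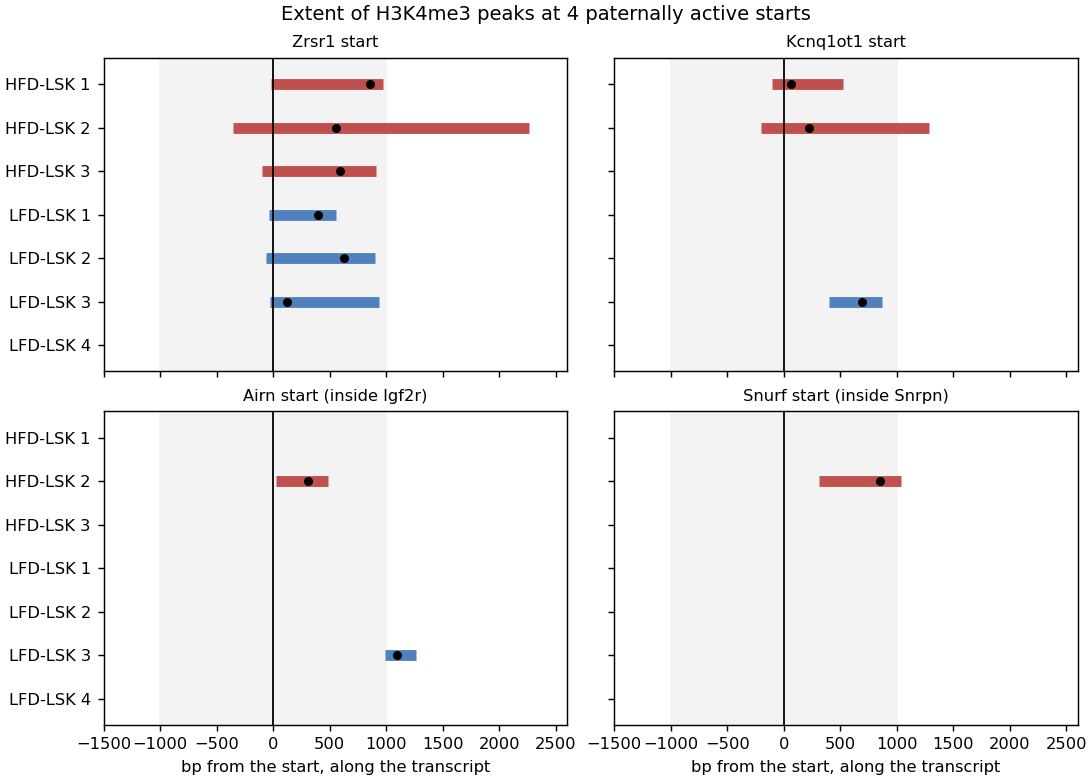
Extent of each called peak at 4 starts that are active on the paternal copy, in bp from the start along the transcript, with 1 row per list (red HFD-LSK, blue LFD-LSK). Bars are peaks, dots are summits, and the grey band is the 1 kb on either side; empty rows have no call. The 6 Zrsr1 peaks all cover the start, and 2 of the 3 Kcnq1ot1 peaks do.

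Igf2r encodes the receptor that carries insulin-like growth factor 2 to the lysosome and is expressed from the maternal copy (GRCm38 chr17:12682406-12769706, minus strand). Its own start was called in 0 lists, and the nearest peak of any list was 27.1 kb away. That peak lies near the start of Airn, which is 28395 bp from the Igf2r start. Airn is the paternally expressed antisense RNA whose promoter is the control region in the second intron of Igf2r. Airn was called in HFD-LSK replicate 2 (chr17:12741340-12741796, 457 bp, fold 6.57, rank 11238) and in LFD-LSK replicate 3 (chr17:12742302-12742578, 277 bp, fold 4.16, rank 10195). Both peaks were weak for their list, at 85.8% and 98.5% of the way down, and the second only just reached into the 1 kb window, which ends at 12742311. HFD-LSK replicate 2 had a further peak inside Igf2r, 44588 bp from its start, with a fold of 4.68 at 98.2% of the way down. The rank difference at Airn was 996.1 (HFD-LSK 12160 ± 1060, LFD-LSK 11160 ± 1033, mean ± SD of 3 and 4 lists, exact permutation p = 0.257), with 5 of 7 ranks assigned. Counting only peaks with the summit inside the window leaves out the LFD-LSK peak, and the difference was then 418.3 (exact permutation p = 0.6).

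Snrpn encodes a protein of the spliceosome, and its shared start with Snurf is the Prader-Willi imprinting center, active on the paternal copy. The gene is annotated from several starts (GRCm38 chr7:59982495-60450177, minus strand), and the outermost, which is the one counted among the 10, was called in 0 lists. The start shared with Snurf, 444978 bp downstream, was called in HFD-LSK replicate 2 only. That peak covered chr7:60004162-60004890, was 729 bp wide with a fold of 4.68, and stood 97.6% of the way down a list of 13094 peaks. Its mean rank was 12670 ± 703.7 (SD, n = 3) in HFD-LSK and 11740 ± 953.4 (SD, n = 4) in LFD-LSK, with 6 of 7 ranks assigned (exact permutation p = 0.229). The other annotated starts of Snrpn had no peak.

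Peg3 encodes a zinc finger protein of the paternal copy, and its control region is the start it shares with Usp29, 97 bp away on the other strand (Peg3 at GRCm38 chr7:6703892-6730462, minus strand). No list called either start. Across the 263 kb from Peg3 through Usp29 there was no peak in any list, and the nearest was 346 kb from the Peg3 start. The control region at the downstream promoter of Grb10, described next, had no call either. The Peg3 region differed in this from those at Zrsr1, Kcnq1ot1, Airn, and Snurf, which had 6, 3, 2, and 1 calls. That difference was not tested.

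Grb10 encodes an adaptor that restrains insulin and growth factor signaling and is expressed from the maternal copy in most tissues and the paternal copy in neurons (GRCm38 chr11:11930499-12037428, minus strand). Its start, the CpG-dense maternal promoter, was called in HFD-LSK replicate 3 only. The peak covered chr11:12037333-12037621, was 289 bp wide, and had a fold of 5.03 at rank 10249, 85.6% of the way down. No list had a peak elsewhere in the gene, where the control region at the downstream promoter lies. The mean rank came out nearer the top in LFD-LSK, by 274.8 (exact permutation p = 0.771, adjusted p = 0.983), although the 1 call was in HFD-LSK. Ranks assigned for want of a call are smaller in shorter lists, 6 of the 7 values at Grb10 are such ranks, and the sign turned under 3 alternatives. Most ranks at Airn and Snurf were assigned in the same way. Without HFD-LSK replicate 3, 8 of the 10 genes were called in no list.

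The remaining genes lie in 2 domains whose control regions are methylated in sperm. H19, a maternally expressed noncoding RNA (GRCm38 chr7:142575530-142578146, minus strand), and Igf2, the paternally expressed insulin-like growth factor 2 (chr7:142650768-142666816, minus strand), have starts 88670 bp apart. Meg3, a maternally expressed noncoding RNA (chr12:109540996-109571729, plus strand), and Dlk1, the paternally expressed noncanonical Notch ligand (chr12:109452485-109463336, plus strand), have starts 88511 bp apart. No list had a peak at any annotated start of the 4 genes or within them. No peak fell anywhere in the 91.3 kb from H19 to Igf2 or in the 119 kb from Dlk1 to Meg3. This includes windows 1 to 5 kb upstream of H19 and 5 to 20 kb upstream of Meg3, taken to hold the control regions because no file gave their positions. The nearest peaks of any list were 43.8 kb from the H19 start and 384 kb from the Dlk1 start. H19 has no entry in the promoter table.

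Of the 8 control region windows examined, 4 were called in at least 1 list and 0 in all 7. Over all gene starts, the shares were 29.0% and 11.1%. The windows differed in length, from 1 kb on either side of a start to most of the Grb10 gene. The called ones were all promoters of paternally expressed transcripts methylated in the egg. Neither of the windows between genes was called, nor were the start shared by Peg3 and Usp29 and the window inside Grb10. HFD-LSK replicate 2 called 4 of the 8 windows, LFD-LSK replicate 3 called 3, HFD-LSK replicate 1 called 2, and HFD-LSK replicate 3 and LFD-LSK replicates 1 and 2 called 1 each. LFD-LSK replicate 4 called 0. The most calls were in the longest list and the fewest in the shortest, though HFD-LSK replicate 3, the second longest with 11977 peaks, had only 1. The part of list length in these counts was not tested.

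The 3 members with a call each had a higher proportion of calls among the HFD lists, as did 6770 of 13125 gene starts called in at least 1 list (51.6%). The 5033 starts called in all 7 lists could not show this. All 6770 were thus among the 8092 starts called in 1 to 6 lists, as the 3 members were, so it was common among such starts. For Zrsr1 the share was 3 of 3 against 3 of 4 (Fisher's exact test, p = 1). For Kcnq1ot1 it was 2 of 3 against 1 of 4 (exact p = 0.486), and for Grb10 1 of 3 against 0 of 4 (exact p = 0.429). No member was called in 3 of 3 against 0 of 4, a pattern that 0.29% of gene starts called in at least 1 list showed. The mean rank was nearer the top in HFD-LSK for 2 of the 3 members, against 50.9% of gene starts. No difference by diet was detectable at any of the 10 genes in these 7 lists, and the diets' values were too spread and the calls too few to show that there was none.

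The calls at the members were set beside the CpG content of their promoters, which goes with H3K4me3 over all genes. CpG content was taken as the observed over expected number of CG in the 300 bp promoter. Among 32851 promoters, 83.7% of those at 0.6 or above had a call in at least 1 list, against 15.1% of those below. In the class from 0.4 to 0.6 the share was 42.2%. Of 17 annotated promoters of 9 members, 5 were at 0.6 or above, and 1 of these was called, that of Grb10 (0.973) in a single list. The uncalled were Igf2r (0.91, 34 CG), 2 promoters of Igf2 (0.896 and 0.791), and Meg3 (0.602). The called starts of Zrsr1, Kcnq1ot1, Snurf, and Airn had 0.475, 0.422, 0.574, and 0.192, with 10, 9, 7, and 3 CG, so that all but Airn fell in the class from 0.4 to 0.6. The second start of Commd1, which lay under most of the Zrsr1 peaks, had 0.759 with 17 CG. The call at Zrsr1 is therefore not one at a CpG-poor promoter alone. The uncalled promoters of Peg3 (0.463) and Dlk1 (0.427) were in the same range as those of Zrsr1 and Kcnq1ot1. The summits of all peaks at the starts of Zrsr1, Kcnq1ot1, Snurf, and Airn lay downstream of the promoter windows, so these values do not give the CpG content at the summits.

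**Figure D3:**
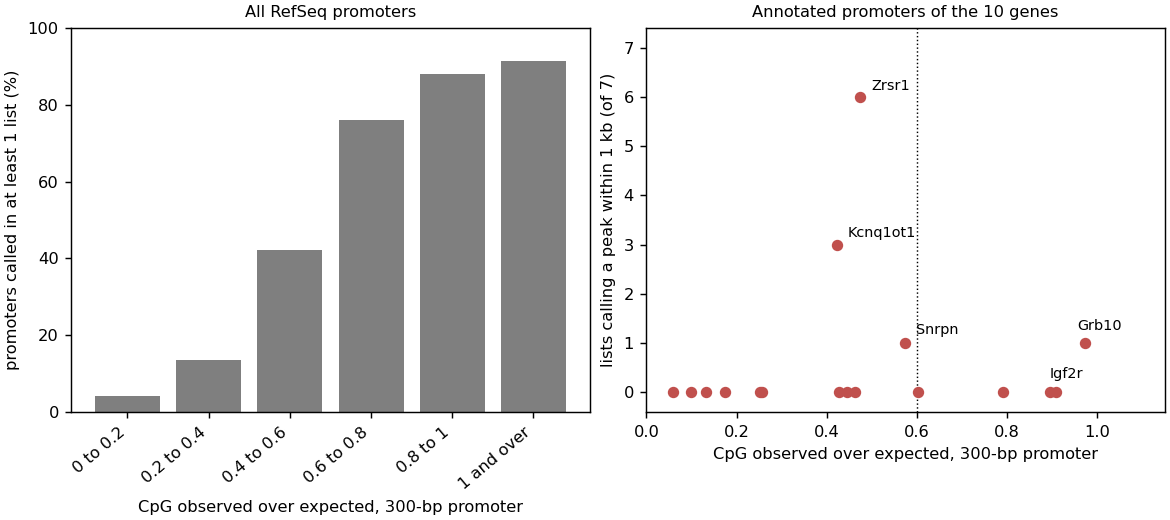
Left, percentage of all RefSeq promoters called in at least 1 list, by CpG observed over expected of the 300 bp promoter, rising from 4.11% in the lowest class to 91.5% in the highest. Right, each annotated promoter of 9 of the 10 genes (red points), by CpG observed over expected and the number of the 7 lists that called it, with a dotted line at 0.6; Zrsr1 and Kcnq1ot1, with the most calls, lie left of the line. The second Commd1 start under most of the Zrsr1 peaks (0.759) is not shown.

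ZFP57 is a zinc finger protein that keeps imprinted control regions methylated and reads the hexamer TGCCGC. Searched on both strands, these letters were in 11.6% of all promoters of the table and in 4 of the 17 of the members, namely the start Snrpn shares with Snurf, 1 of Igf2, the CpG-dense promoter of Grb10, and 1 of Meg3. The letters GCCATNTT, read by YY1, a factor known to bind at the Peg3 control region, were in 6.05% of promoters and in 0 of the 17. These are matches of letters in 300 bases only.

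A wider list of imprinted genes was examined in the same way. It holds Airn and Snurf, described above, and a pair of genes that share a peak, so its calls are not all separate regions. Only the outermost start of each gene was counted. Of 36 further imprinted genes with a placed start, 23 were called in no list, 9 in 1 to 6, and 4 in all 7, so 36.1% had a call. Over all gene starts these shares were 29.0% with a call and 11.1% in all 7, and over protein-coding ones 51.3% and 20.2%. Of 21 listed as paternally expressed 6 were called, and of 15 listed as maternally expressed, some of them so in few tissues, 7 were. Whether the starts counted are imprinted in LSK cells was not measured. The 4 called in every list were Inpp5f, an inositol phosphatase, Peg13, a noncoding RNA, Copg2, a coat protein of transport vesicles, and Ube3a, a ubiquitin ligase. Among the 13 with a call, the mean rank was nearer the top in HFD-LSK for 5, and the median difference was 301 ranks, against -47.33 over all gene starts.

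Ube3a was the only one of these with a rank p below 0.05. Its ranks were 2236.5, 2297, and 9894.5 in HFD-LSK and 60, 25, 301.5, and 187.5 in LFD-LSK. Over all gene starts tested, 2.45% had a rank p below 0.05, and the share without overlap between the diets was not counted. At Ube3a the groups did not overlap, every LFD-LSK list holding the peak among its strongest. The mean was 4809 in HFD-LSK and 143.5 in LFD-LSK, a difference of 4666 ranks (exact permutation p = 0.0286, the smallest possible, adjusted p = 0.982), so it did not pass the adjustment. HFD-LSK replicate 3 carried much of the difference, which was 2123 without it. In that list Kit also ranked low, at 10770 against 648 to 2847 in the other 6, while Meis1 ranked at 1192. The other stem and progenitor genes called there ranked at 2160 (Cd34), 3215 (Tal1), 4713 (Gata2), 9311.5 (Flt3), and 9514.5 (Runx1). Whether that list stands apart was not tested. The Ube3a widths overlapped, at 1548, 1891, and 1630 bp in HFD-LSK and 1544, 1682, 1529, and 1365 bp in LFD-LSK. The diets did not overlap at Copg2 either, in the opposite direction. Its ranks were 3151.5, 2524.5, and 2463.5 in HFD-LSK and 4266, 3500.5, 4337.5, and 5223 in LFD-LSK. Copg2 ranked at a mean of 2713 in HFD-LSK and 4332 in LFD-LSK (exact permutation p = 0.0571), Inpp5f at 3390 and 4695 (exact p = 0.6), and Peg13 at 5920 and 6598 (exact p = 0.543). Ube3a is imprinted in neurons and is expressed from both copies in most other tissues.

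**Figure D4:**
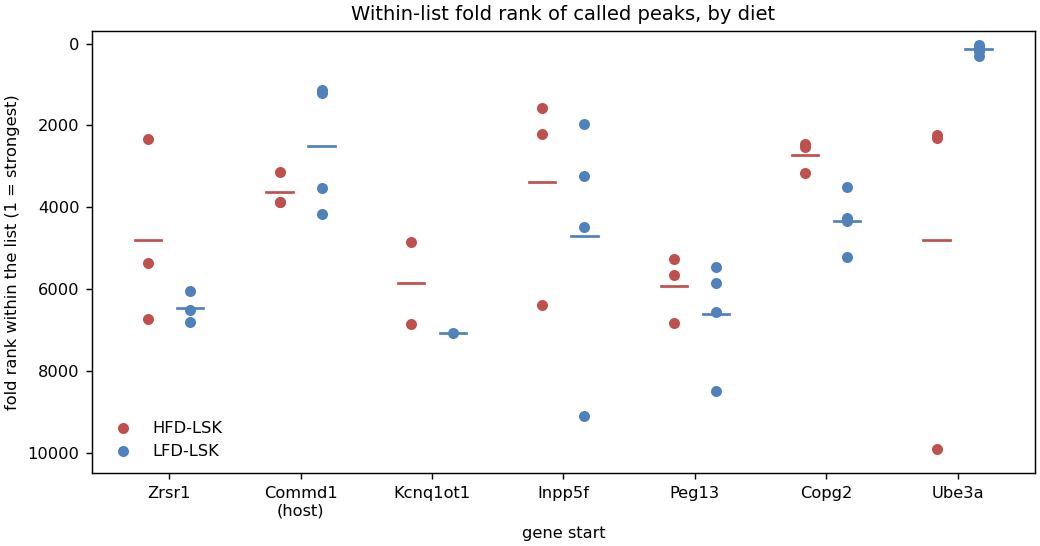
Rank by fold within each list (vertical axis, 1 is strongest, reversed) of the peaks called at 7 gene starts, with 1 point per list that had a call (red HFD-LSK, blue LFD-LSK) and a line at the mean of the called ranks. The diets overlap at Zrsr1, whereas the LFD-LSK points of Ube3a lie between 25 and 301.5, all above the HFD-LSK points. At Copg2 the diets do not overlap either, with the HFD-LSK points above.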

How the data were processed

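H3K4me3 CUT&Tag peak lists of 3 HFD-LSK and 4 LFD-LSK libraries were analyzed, grouped by their labels. The sample titles name CUT&RUN, whereas the paper describes CUT&Tag, the name used here. The 7 IgG libraries were not analyzed here, and the value of 1 marker gene is not reported here. The submitters' processing notes name Trim Galore, Bowtie2, Picard, MACS2, bedtools, HOMER, and featureCounts and the build GRCm38, whereas the paper's methods describe SEACR peaks on GRCm39. The deposited lists have the MACS2 narrow peak layout, and 70.9% to 82.6% of their peaks lay at coding gene starts of GRCm38 against 7.52% to 8.32% with GRCm39, so GRCm38 was used. With every peak the authors deposited a fold (the ratio of summit to local background), −log10 p and −log10 q values, and a score. The lowest −log10 p was 5.01, so weaker regions are missing from every list, and read depth is unknown. No list is a copy of another.

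Gene positions came from RefSeq GRCm38.p6, and strands from its promoter table or, by symbol, from GENCODE, which placed 90.5% of genes. The outermost start of a gene was used. Ranks by fold were compared by exact permutation in Python 3.11.15 (SciPy 1.17.1), and the steps were tested on simulated lists. The genes named are the 10 listed, and of the further imprinted genes those called in all 7 lists, sharing a start or host with a listed gene, or with a rank p below 0.05. The closing observations name others, chosen after their values were seen. Genes, lists, and tests were chosen with earlier results of these data known. The study's DESeq2 test needs counts and could not be run on peak lists. Same-numbered HFD-LSK and LFD-LSK libraries were not taken as pairs. The paper states that its peak tests took account of batch and paired samples, and that a further cohort of LSK cells was added. The labels give neither pairs nor the cohort of any library. Alternatives were ranks by −log10 p, a −log10 q of at least 5, equal list sizes, 3 kb windows, summits inside the window, uncalled lists left out, every annotated start (added after seeing the data), a replicate block, and leaving out each library.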

Additional observations from a re-analysis of the deposited data

Results flagged for a closer look

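At Zrsr1, LFD-LSK replicate 4 stood apart from the other 3 LFD-LSK libraries, with an assigned rank of 10790.5 where the others ranked between 6054 and 6793. The gap to its nearest neighbor was 0.844 of the group's range, above Dixon's 95% limit for 4 samples. The value is not a measured rank, because that list had no peak at the Zrsr1 start, and the list is also the shortest of the 7, with 6921 peaks. It was 1 flag among 9 groups tested, and chance flags about 1 in 20 groups.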

How the results depend on the processing

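At Grb10, where 6 of 7 ranks are assigned, the rank difference turned to -42.17 with the replicate block (exact p = 1), to -454.5 without HFD-LSK replicate 2 and to -36.83 without LFD-LSK replicate 4, and single libraries left out gave -454.5 to 571.5. The cause was not tested. With every annotated start counted, Snrpn gained the 1 call at the Snurf start, where the rank difference was 931.8 (exact permutation p = 0.229). Members called in all lists ranged from 0 to 1 when each library was left out, as did control regions, the 1 being Zrsr1 without LFD-LSK replicate 4. Members called in no list ranged from 7 to 8, and were 6 with every annotated start. The difference at Zrsr1 ran from -3682 to -1359 without single libraries and from -2956 to -1642 under the other alternatives, and at Kcnq1ot1 from -4128 to -191.2 and from -2038 to -1462, all in 1 direction. With a library left out p cannot go below 0.0667 or 0.1, so no such value could pass 0.05; at Kcnq1ot1 it reached 0.0667 without HFD-LSK replicate 3 (exact permutation). At Ube3a it ran from 2123 to 5952 without single libraries, the lowest without HFD-LSK replicate 3, and was 4680 with the replicate block (exact p = 0.25, the smallest possible). Deviations of same-numbered libraries correlated at 0.0745, 0.0167, and -0.0132, and those of differently numbered ones at -0.0782 to 0.0925. With so few libraries these values cannot show whether any were paired or shared a batch. Read depth, unknown here, limits which weak marks could be called. The test of width was planned for genes called in all 7 lists, and there were none.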

Other observations

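A few other imprinted genes, picked out after their values were seen, extend the picture around the 10. In the Kcnq1ot1 domain, Phlda2, a maternally expressed growth regulator of the placenta, was called at its start in 4 of 7 lists (2 HFD-LSK and 2 LFD-LSK), and Cdkn1c, an inhibitor of cyclin-dependent kinases, in 1 HFD-LSK list. Slc22a3, an organic cation transporter gene near Igf2r and Airn, was called in 6 lists, with ranks from 238.5 in LFD-LSK replicate 4 to 8038 in HFD-LSK replicate 3. Peg10 and Sgce, which share a promoter that is methylated in the egg, had 1 peak between them in 3 lists (1 HFD-LSK and 2 LFD-LSK). One of these lists was LFD-LSK replicate 4, the list without any call at the control regions examined, at rank 6168.5. H13, a signal peptide peptidase gene, was called in 6 lists and Ppp1r9a, which encodes an actin-binding protein, in 5. Gnas, which encodes a G protein subunit, had no call at its outermost start but was called at another annotated start in 7 of 7 lists, and Mest in 1 list at another start.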
